A study of Drosophila melanogaster with 12 samples.

Results

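The glutathione transferase (Gst) genes of Drosophila melanogaster were followed across ovaries of 4 genotypes. A gene was a member if its symbol, in the platform's gene table or in the current RefSeq table, begins with Gst followed by a capital letter for its class. Of 11983 genes with a probe set of their own, 34 met this rule, represented by 36 probe sets. The brightest probe set stands for GstO2 and GstE9, which have 2 each. RefSeq names 35 such genes, and the one without a probe set naming it alone, GstE8, was not analysed here. By class the members were 11 delta, 13 epsilon, 3 omega, 1 sigma, 4 theta and 2 zeta genes.

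Glutathione transferases join the tripeptide glutathione to reactive, electrophilic molecules, which makes them more soluble and easier to export. The delta and epsilon classes are expanded in insects, lie mostly in gene clusters and are best known for insecticide detoxification and responses to oxidative stress. The omega, sigma, theta and zeta classes are shared with vertebrates, and some members have narrow tasks in metabolism rather than in detoxification. In the fly, GstE14, also called noppera-bo, is needed for making the steroid hormone ecdysone, and the zeta class is that of maleylacetoacetate isomerase, an enzyme of tyrosine breakdown.

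The arrays came from ovaries of virgin females 4 to 6 h after eclosion, a young stage that holds egg chambers of stages 1 to 8, and each of the 3 biological replicates per genotype pooled about 100 pairs of ovaries. The Pb/2 mutant carried su(Hw)[e04061] over su(Hw)[2], on an X chromosome marked y[2] and w[67c23] as well as ct[6] and f[1]. The A2663/v mutant carried the same X chromosome markers, the EPgy2 P element insertion CG6499[EY02782], itself marked w[+mC] and y[+mDint2], and su(Hw)[A2663] over an allele that one label names v and another su(Hw)[2]. The wild types were BL15598, which is y[1] w[67c23] with that same insertion in CG6499, and Canton S. The su(Hw) gene encodes a zinc finger protein that binds insulators, and mutant egg chambers die at stage 9 by the labels' account. The mutants and BL15598 share w[67c23], A2663/v and BL15598 share the insertion, and Canton S has neither. Genotype and stock background therefore cannot be told apart for any single pair.

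Values are log2 signals after the authors' GCRMA normalisation, and a log2 value of 5 was used as the floor of measurement. The su(Hw) probe set read 2.51 to 3.42 on the 6 mutant arrays, under the floor, and 8.78 to 9.30 on the 6 wild-type arrays. Each array had 37.4% to 38.6% of its probe sets above that floor, and arrays of 1 genotype correlated at 0.963 to 0.995 over all probe sets. Germline markers (7 of 7 over the floor, mean log2 10.57 to 10.80 per array) were present throughout. Of 6 follicle cell markers, 4 were over the floor on the BL15598 arrays and 5 on the others (mean 7.84 to 9.05 per array). This list held Yp1, Yp2 and Yp3, and its mean was not separated from fat body signal. Markers of other tissues were present too, except that most haemocyte markers were under the floor. The 4 fat body genes averaged 6.82 to 8.61 per array, the 5 muscle genes 9.24 to 10.26, the 4 Malpighian tubule genes 6.14 to 8.05 and the 6 haemocyte genes, of which 2 passed the floor anywhere, 3.04 to 4.17. The 10 digestive enzyme genes, markers of gut, were uneven. On average they read 5.44, 6.63 and 2.38 in Pb/2, 6.25, 2.27 and 6.52 in A2663/v, 2.92, 3.80 and 2.39 in BL15598, and 2.25, 2.28 and 3.35 in Canton S. The number of these genes over the floor was 5, 8 and 0 in Pb/2, 8, 0 and 8 in A2663/v, 1, 3 and 0 in BL15598, and 0, 0 and 3 in Canton S. The 4 mutant arrays with the most of this signal stand apart, and 3 wild-type arrays held some of it too. Results were recomputed without these 4 arrays, which leaves 1 array per mutant whose spread is taken from the wild types, and on all 12 arrays with the digestive enzyme mean as a covariate. In bulk ovaries, fewer cells of a type and less RNA per cell cannot be told apart.

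Most of the family was measurable in the ovary. Of the 34 genes, 22 passed the filter of log2 over 5 on at least 3 of 12 arrays, and 20 of these lay over the floor on all 12. The remaining pair, GstE7 and GstE10, each fell under the floor in 1 wild-type strain only. The classes differed in how many members were measurable: 3 of 11 delta genes passed, against 10 of 13 epsilon, 3 of 3 omega, 1 of 1 sigma, 4 of 4 theta and 1 of 2 zeta genes. Whether a class share differs from another beyond chance was not tested.

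**Figure D1:**
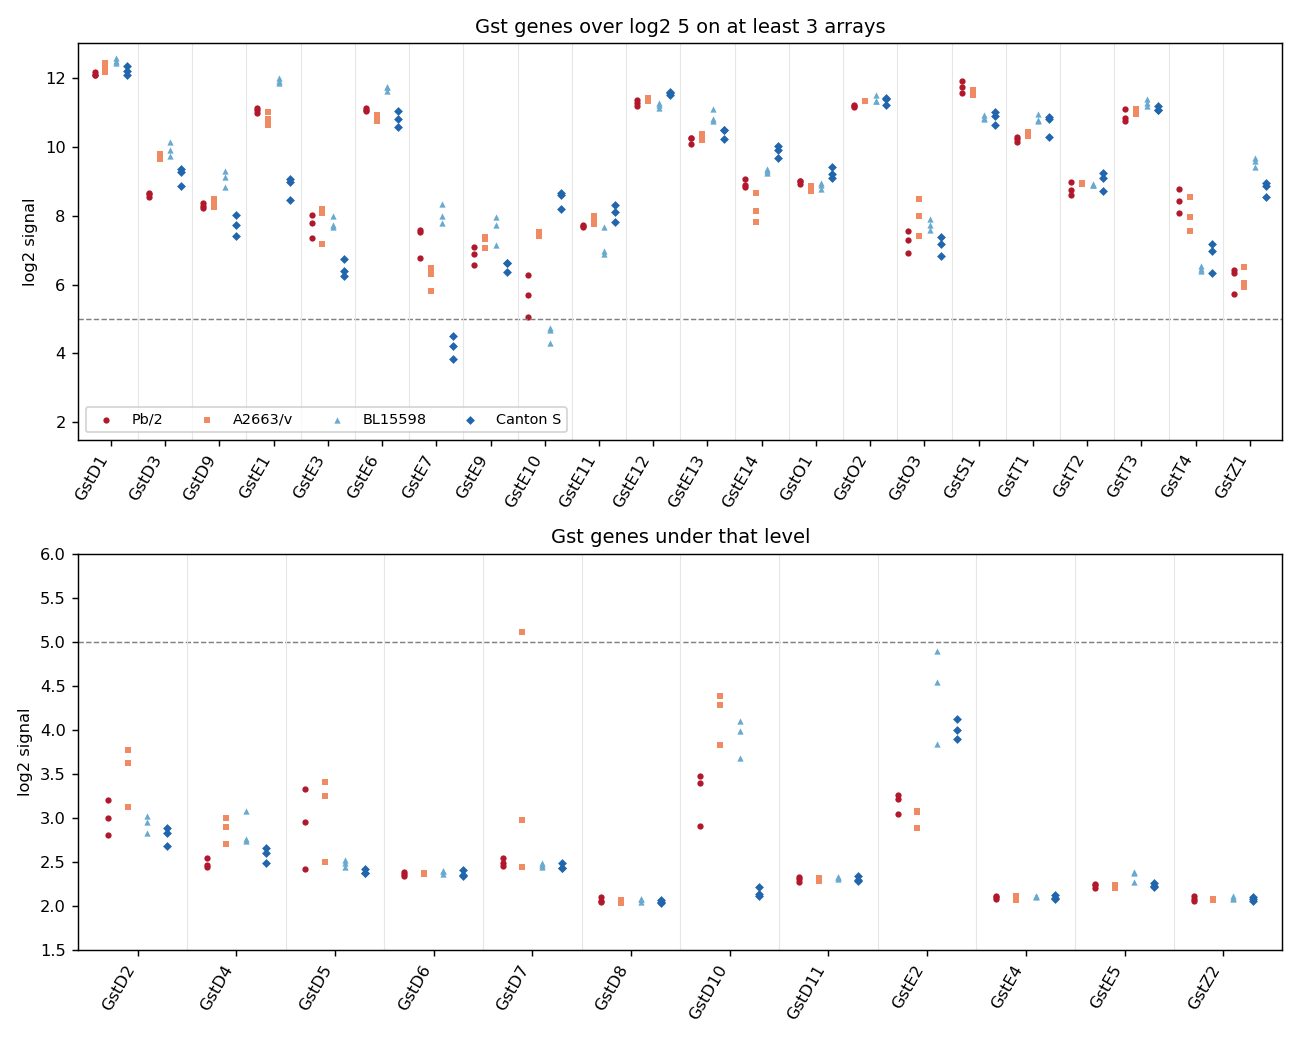
Log2 signal of the 34 Gst genes on the 12 arrays, by genotype. GstZ1 is dimmer on all 6 mutant arrays, and GstE1, GstE7 and GstE10 differ most between BL15598 and Canton S.

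The 12 genes that did not pass were GstD2, GstD4, GstD5, GstD6, GstD7, GstD8, GstD10, GstD11, GstE2, GstE4, GstE5 and GstZ2. Their values ran from 2.03 to 5.11, so only bounds are known for them, and 11 stayed under the floor on every array. Of these, 6 (GstD6, GstD8, GstD11, GstE4, GstE5 and GstZ2) were flat at 2.03 to 2.40. Sub-floor signal of GstD10 lay at 2.91 to 3.47 in Pb/2, 3.82 to 4.38 in A2663/v, 3.68 to 4.10 in BL15598 and 2.11 to 2.21 in Canton S. Sub-floor signal of GstE2 lay at 2.89 to 3.26 on the 6 mutant arrays and 3.84 to 4.90 on the 6 wild-type arrays. These ranges do not overlap between Canton S and the other genotypes for GstD10, or between mutants and wild types for GstE2, but no fold can be given for values under the floor. Over all 6163 genes tested, 8.31% had every mutant array below every wild-type array. No such share was taken for genes under the floor, or for Canton S against the other genotypes, so neither separation is read as a result.

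Across genotypes, 10 of the 22 genes were called in at least 1 of 7 comparisons, where called means limma's adjusted p under 0.05 and at least a 2-fold change. The share over all 6163 genes tested was 14.2%. The 10 were GstD3, GstD9, GstE1, GstE3, GstE7, GstE9, GstE10, GstE14, GstT4 and GstZ1, that is 2 of 3 measurable delta genes, 6 of 10 epsilon genes, 1 of 4 theta genes and the single measurable zeta gene. No omega or sigma gene was called. Members of the clusters are close relatives by sequence, and probe sequences were not used here, so signal taken from a relative's transcript was not tested.

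For the mean of both mutants against the mean of both wild types, 1 gene was called higher (GstT4) and 2 lower (GstE14 and GstZ1). The background was 3.98% of genes called higher and 1.85% called lower. At adjusted p under 0.05 alone, with no minimum fold, 5 members were higher and 8 lower, against 20.3% and 26.6% of all genes. The median log2 change was -0.09 over the 22 members and -0.03 over all genes. The median absolute log2 change was 0.27 over the members and 0.19 over all genes.

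GstZ1 (CG9362), of the zeta class, changed most among the 22 in this comparison. Its log2 signal was 5.73, 6.33 and 6.44 in Pb/2, 5.93, 6.50 and 6.04 in A2663/v, 9.68, 9.59 and 9.41 in BL15598, and 8.94, 8.86 and 8.53 in Canton S. All 6 mutant arrays were low and all 6 wild-type arrays high, with a gap between them, and the mutant values still lay over the floor. The change was -3.004 ± 0.136 (log2 ± SE), 8.02-fold lower, with limma's adjusted p = 1.19e-09. The call of lower held in all 4 mutant and wild-type pairs, for 1 of 22 members and 0.828% of all genes. The pairs share arrays, and their changes were -3.39 and -2.61 for Pb/2 against BL15598 and against Canton S, and -3.40 and -2.61 for A2663/v against the same strains. The difference between the mutants was 0.01 ± 0.19 (limma's adjusted p = 0.991). BL15598 was 0.79 ± 0.19 above Canton S (limma's adjusted p = 0.0091), under the 2-fold minimum.

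The tyrosine breakdown pathway around GstZ1 gave little else to measure. Of its 6 genes on the array, GstZ1 alone was tested. Tat, Hpd, hgo and Faa, which act before and after the isomerase, and the second zeta gene GstZ2 did not pass the floor. Sub-floor signal of Faa, the enzyme that follows the isomerase, was 4.86, 4.51 and 4.51 in A2663/v and 2.34 to 3.23 on the other arrays. Faa was singled out after its values were seen. No share of genes with such a separation was taken under the floor, so it is not read as a result. GstZ1 and GstZ2 are adjacent in the RefSeq gene order, and GstZ2 read 2.06 to 2.11 on all arrays. On the far side of GstZ1 lies ps, pasilla, an RNA-binding splicing regulator, whose mean was 10.13 in Pb/2, 10.51 in A2663/v, 9.91 in BL15598 and 10.35 in Canton S. Its change was 0.19 ± 0.07 (limma's adjusted p = 0.0338), opposite in sign to that of GstZ1 and under the 2-fold minimum.

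GstT4 (CG1681), of the theta class, rose. The arrays read log2 signals of 8.44, 8.77 and 8.09 in Pb/2, 8.54, 7.54 and 7.96 in A2663/v, 6.45, 6.39 and 6.54 in BL15598, and 6.97, 7.18 and 6.32 in Canton S. Every mutant array was above every wild-type array. The change was 1.58 ± 0.18, 2.99-fold, with limma's adjusted p = 1.35e-05. It was called higher in all 4 pairs, as 1 of 22 members and 1.28% of all genes. The mutant arrays with the most digestive enzyme signal included the 3 highest GstT4 values (8.77, 8.54 and 8.44). The 2 mutant arrays with little of it, Pb/2 replicate 3 and A2663/v replicate 2, read 8.09 and 7.54, and the highest wild-type array 7.18. The part of the digestive enzyme signal in the GstT4 values was not tested. Without the 4 arrays with the most digestive enzyme signal the change was 1.17 (limma's adjusted p = 0.0046), and the call of A2663/v over Canton S was lost (0.72, limma's adjusted p = 0.184, with 1 A2663/v array left). It was also lost on all 12 arrays with the covariate (0.91, limma's adjusted p = 0.0309), as it was without A2663/v replicate 1 (0.93) or Canton S replicate 3 (0.94). Of the other theta genes, GstT1 (CG30000) and GstT3 (CG1702) were lower by less than 2-fold, with changes of -0.44 ± 0.09 and -0.23 ± 0.06. GstT2 (CG30005), next to GstT1 in the gene order, changed by -0.11 (limma's adjusted p = 0.352). Against BL15598, GstT3 changed by -0.38 in Pb/2 and -0.26 in A2663/v (limma's adjusted p = 0.0039 and 0.0294). Against Canton S these were -0.21 and -0.09 (limma's adjusted p = 0.0962 and 0.513). For GstT1, A2663/v against Canton S gave -0.28 (limma's adjusted p = 0.130), and the other pairs had adjusted p under 0.05. GstT1 averaged 10.21 ± 0.07 in Pb/2, 10.38 ± 0.07 in A2663/v, 10.83 ± 0.12 in BL15598 and 10.65 ± 0.33 in Canton S. GstT2 averaged 8.77 ± 0.19 in Pb/2, 8.93 ± 0.02 in A2663/v, 8.90 ± 0.01 in BL15598 and 9.02 ± 0.28 in Canton S. GstT3 averaged 10.90 ± 0.18 in Pb/2, 11.02 ± 0.09 in A2663/v, 11.28 ± 0.09 in BL15598 and 11.10 ± 0.07 in Canton S (SD, n = 3 each for all 3 genes). In GstT1 and GstT2, Canton S had the widest spread of the genotypes.

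**Figure D2:**
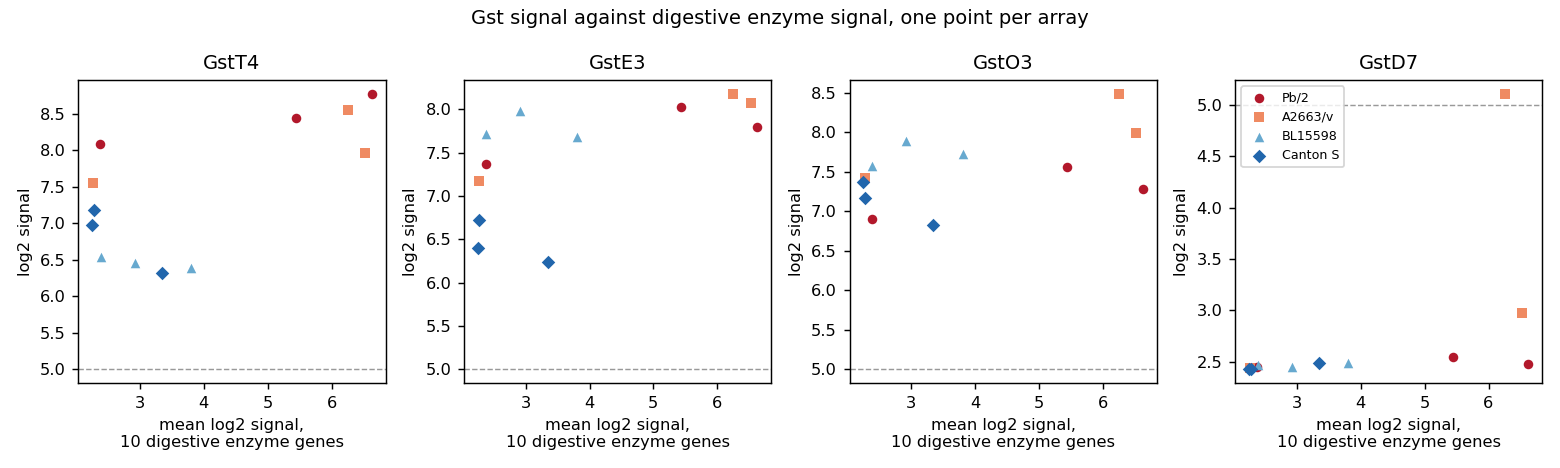
Log2 signal of GstT4, GstE3, GstO3 and GstD7 against the mean log2 signal of 10 digestive enzyme genes, one point per array. The 4 mutant arrays at the right have the most digestive enzyme signal, and the GstT4 values of the 2 mutant arrays at the left, 8.09 and 7.54, are above all wild-type values.

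GstE14 (CG4688), the ecdysteroid synthesis gene, fell. Array by array, the log2 signal was 9.06, 8.82 and 8.89 in Pb/2, 8.65, 8.13 and 7.83 in A2663/v, 9.35, 9.29 and 9.24 in BL15598, and 10.02, 9.91 and 9.67 in Canton S. The mutant arrays were all under the wild-type arrays, but the order ran through all 4 genotypes, with A2663/v lowest and Canton S highest. The change was -1.02 ± 0.12, 2.02-fold lower, with limma's adjusted p = 1.32e-05. It lay so close to the 2-fold minimum that leaving out Pb/2 replicate 2, A2663/v replicate 3 or Canton S replicate 1 ended the call, with the change at -0.92 to -1.13 over all arrays left out in turn. Pair by pair it was called for A2663/v against BL15598 (-1.09, limma's adjusted p = 1.82e-04; -0.90 and no call without A2663/v replicate 3) and against Canton S (-1.67, limma's adjusted p = 5.46e-06). Pb/2 gave -0.94 against Canton S and -0.37 against BL15598 (limma's adjusted p = 7.91e-04 and 0.0847), neither called. Unlike the cluster genes, GstE14 has no Gst neighbour in the gene order.

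GstS1 (CG8938), the single sigma gene, which conjugates products of lipid peroxidation and is abundant in flight muscle, was higher in both mutants by less than 2-fold. Log2 signals were 11.92, 11.57 and 11.73 in Pb/2, 11.49, 11.54 and 11.66 in A2663/v, 10.80, 10.82 and 10.93 in BL15598, and 10.64, 10.89 and 11.01 in Canton S. All mutant arrays lay over all wild-type arrays, and the wild types had the same mean of 10.85. The change was 0.80 ± 0.07 (limma's adjusted p = 1.27e-06), and 0.79 without the 4 arrays with the most digestive enzyme signal (limma's adjusted p = 7.25e-04). The muscle markers averaged 9.63 to 9.91 on the mutant arrays, above BL15598 (9.24 to 9.43) and overlapping Canton S (9.78 to 10.26). The part of muscle in the GstS1 values was not tested. GstS1 and GstT4 are 2 of 22 members with every mutant array above every wild-type array, against 5.35% of all genes, and GstE14 and GstZ1 are 2 of 22 with every mutant array below, against 8.31%.

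**Figure D3:**
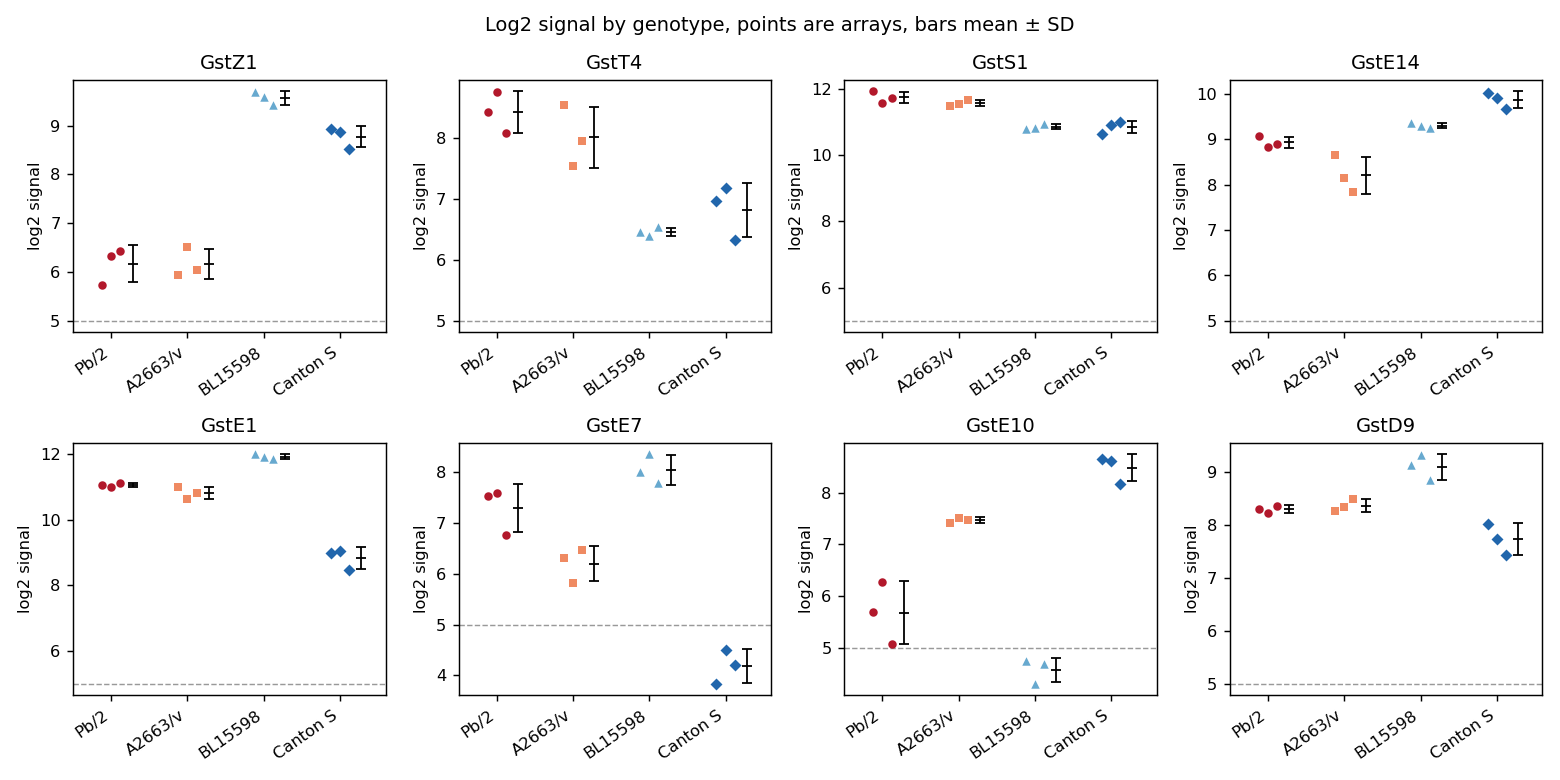
Log2 signal by genotype for 8 Gst genes, points for arrays and bars for mean ± SD of 3 arrays. Mutant and wild-type arrays separate for GstZ1, GstT4, GstS1 and GstE14, while GstE1, GstE7, GstE10 and GstD9 differ between the wild types, with the mutant means between them.

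The wild-type strains also differed from each other in this family, mostly in the epsilon class. For BL15598 against Canton S, 5 members were called higher (GstD9, GstE1, GstE3, GstE7 and GstE9) and 1 lower (GstE10), against a background of 2.01% called higher and 3.08% called lower. The median absolute log2 change was 0.59 over the 22 members and 0.19 over all genes. The signed median was 0.23 over the members and -0.02 over all genes.

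GstE1 (CG5164), known for conjugating lipid peroxidation products, showed the smallest adjusted p of the 22 in this strain comparison. On the log2 scale it read 11.06, 10.99 and 11.11 in Pb/2, 11.00, 10.63 and 10.80 in A2663/v, 11.98, 11.92 and 11.84 in BL15598, and 8.97, 9.06 and 8.46 in Canton S. Canton S stood far below the other 3 genotypes, and BL15598 stood above both mutants. BL15598 was higher than Canton S by 3.09 ± 0.13, 8.49-fold, with limma's adjusted p = 1.36e-09. Against Canton S, Pb/2 was called higher (2.23 ± 0.13, limma's adjusted p = 3.52e-08), as was A2663/v (1.98, limma's adjusted p = 1.11e-07). Against BL15598, A2663/v was called lower (-1.11, limma's adjusted p = 2.95e-05), and Pb/2 was lower by less than 2-fold (-0.86, limma's adjusted p = 2.18e-04).

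GstE7 (CG17531) had the same order. The log2 values were 7.53, 7.60 and 6.76 in Pb/2, 6.31, 5.81 and 6.47 in A2663/v, 8.00, 8.35 and 7.78 in BL15598, and 3.84, 4.51 and 4.20 in Canton S. Canton S was under the floor on all 3 arrays, so folds against it are bounds. The adjusted p beside these bounds are from the fit of the deposited values, with sub-floor signal not raised to the floor. BL15598 was at least 8.23-fold above Canton S (limma's adjusted p = 1.30e-07), Pb/2 at least 4.91-fold (limma's adjusted p = 8.87e-07) and A2663/v at least 2.29-fold (limma's adjusted p = 6.05e-05). A2663/v was also called lower than BL15598 (-1.84 ± 0.26, limma's adjusted p = 9.81e-05).

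GstE10 (CG17522) ran the other way. Its log2 signal was 5.69, 6.28 and 5.07 in Pb/2, 7.42, 7.52 and 7.47 in A2663/v, 4.74, 4.30 and 4.68 in BL15598, and 8.65, 8.61 and 8.18 in Canton S. Here BL15598 was under the floor, Canton S was highest, and no 2 genotypes overlapped. Folds against BL15598 are bounds, and the adjusted p beside them are again from the deposited values, not raised to the floor. BL15598 was at least 11.2-fold below Canton S (limma's adjusted p = 7.53e-08). Against BL15598, A2663/v was at least 5.54-fold higher (limma's adjusted p = 1.19e-06) and Pb/2 at least 1.60-fold higher (limma's adjusted p = 0.0029). The call of Pb/2 over BL15598 was lost with values under the floor raised to it (0.68, limma's adjusted p = 0.0314). It was also lost without the 4 arrays with the most digestive enzyme signal (0.50) and with the covariate (0.97). Leaving out Pb/2 replicate 2 (0.81) or BL15598 replicate 2 (0.97) ended the call as well. Against Canton S, Pb/2 was lower by 2.80 ± 0.25 on the log2 scale (limma's adjusted p = 1.69e-06), and A2663/v was lower by 1.01 ± 0.25 on that scale (limma's adjusted p = 0.0080). The A2663/v call lay at the 2-fold minimum. It was lost without the 4 arrays (-0.96, limma's adjusted p = 0.0516), with median centring, and without A2663/v replicate 1, Canton S replicate 1 or Canton S replicate 2 (-0.98, -0.93 and -0.94), and it held with the covariate (-1.19).

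With all arrays, GstE10 was called in opposite directions against the wild types in both mutants, through 1 call in each mutant that was lost under several of the alternatives just given. For Pb/2 it was 1 of 22 members against 0.162% of all genes. For A2663/v, GstE1, GstE7 and GstE10 were 3 of 22 against 0.308%. In 8 of the 22 members (GstD9, GstE1, GstE6, GstE7, GstE9, GstE10, GstE11 and GstE12) both mutant means lay between the wild-type means, which held for 14.4% of all genes. For these members the sign of a mutant's change depends on which wild type it is set against. The difference of the mutant mean from the wild-type mean was 0.05 for GstE10, -0.02 for GstE9 and -0.08 for GstD9 (limma's adjusted p = 0.835, 0.922 and 0.539), while all 3 were called between the strains.

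**Figure D4:**
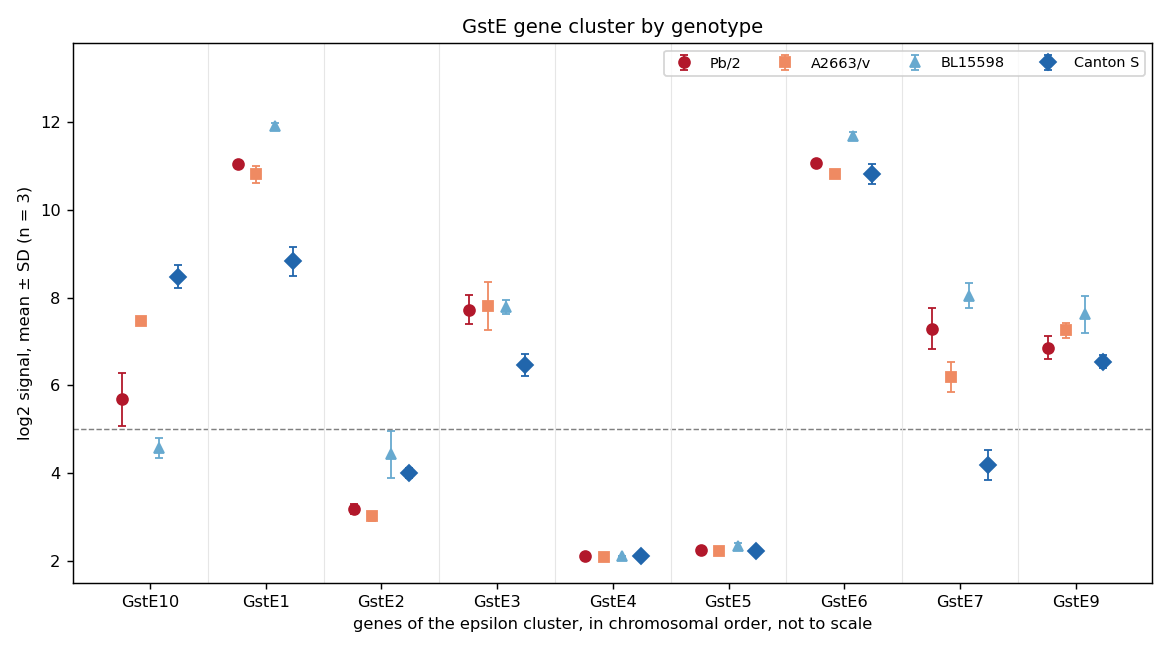
Mean log2 signal of the epsilon cluster genes in RefSeq gene order for the 4 genotypes, with bars for the SD of 3 arrays. GstE10, GstE1 and GstE7 separate BL15598 from Canton S, and GstE2, GstE4 and GstE5 lie under the floor in all genotypes.

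Of the 6 genes called between the strains, 5 lie in 1 cluster. In the RefSeq gene order it runs GstE10, GstE1, GstE2, GstE3, a pair of non-coding genes, GstE4, GstE5, GstE6, GstE7, GstE8 and GstE9. Of its 9 genes measured here by a probe set of their own, GstE2, GstE4 and GstE5 did not pass the floor, those 5 were called, and GstE6 was higher in BL15598 by less than 2-fold. GstE6 (CG17530) averaged 11.07 ± 0.06 in Pb/2, 10.83 ± 0.09 in A2663/v, 11.70 ± 0.07 in BL15598 and 10.82 ± 0.23 in Canton S (SD, n = 3 each). GstE10 and GstE1 are neighbours, and their strain differences have opposite signs. The genes on either side of the cluster, Idgf5 (2.17 to 2.22) and imd (2.44 to 3.18), were under the floor on all arrays and give no comparison.

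GstE3 (CG17524) separated Canton S from the rest. The arrays read log2 signals of 8.02, 7.80 and 7.37 in Pb/2, 8.18, 7.17 and 8.08 in A2663/v, 7.98, 7.68 and 7.72 in BL15598, and 6.40, 6.73 and 6.24 in Canton S. Every other array was above every Canton S array. BL15598 was higher than Canton S by 1.34 ± 0.24 (limma's adjusted p = 0.0012), Pb/2 by 1.27 and A2663/v by 1.35 (limma's adjusted p = 0.0016 and 0.0011). The lower mutant values, 7.37 and 7.17, were on the mutant arrays with little digestive enzyme signal. Without the 4 arrays with the most of that signal, neither mutant was called against Canton S (Pb/2 0.91 and A2663/v 0.72, limma's adjusted p = 0.0295 and 0.0852, with 1 array per mutant). On all 12 arrays with the covariate neither reached 2-fold (Pb/2 0.94 and A2663/v 0.98, limma's adjusted p = 0.0070 and 0.0062).

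GstE9 (CG17534) had log2 signals of 6.90, 7.10 and 6.58 in Pb/2, 7.32, 7.06 and 7.39 in A2663/v, 7.72, 7.97 and 7.16 in BL15598, and 6.62, 6.62 and 6.36 in Canton S. BL15598 was above Canton S on every array, by 1.08 ± 0.20 (limma's adjusted p = 0.0013), while Pb/2 overlapped Canton S and A2663/v overlapped BL15598. The call was lost without BL15598 replicate 2 (0.90) or Canton S replicate 3 (0.99). The other probe set of the gene read 2.53 to 3.03 on all arrays, under the floor, so it gives no second measurement of this difference.

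Among the delta genes, GstD1 (CG10045), widely used as a reporter of oxidative stress, had means of 12.11 ± 0.05 in Pb/2, 12.31 ± 0.13 in A2663/v, 12.50 ± 0.06 in BL15598 and 12.21 ± 0.13 in Canton S (SD, n = 3 each). Its changes were all under the 2-fold minimum. They were -0.14 ± 0.05 for mutants against wild types (limma's adjusted p = 0.0377), -0.39 for Pb/2 against BL15598 (limma's adjusted p = 0.0011) and 0.29 for BL15598 against Canton S (limma's adjusted p = 0.0119). GstD9 (CG10091) had log2 signals of 8.29, 8.21 and 8.36 in Pb/2, 8.26, 8.32 and 8.49 in A2663/v, 9.12, 9.31 and 8.84 in BL15598, and 8.02, 7.74 and 7.42 in Canton S. The mutants lay together between the strains, without overlap with either. BL15598 was higher than Canton S by 1.36 ± 0.15 (limma's adjusted p = 1.81e-05).

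GstD3 (CG4381) differed between the mutants. Log2 signals were 8.65, 8.53 and 8.62 in Pb/2, 9.69, 9.78 and 9.64 in A2663/v, 9.91, 10.13 and 9.72 in BL15598, and 9.27, 9.37 and 8.86 in Canton S. Pb/2 was the lowest genotype on every array, and A2663/v overlapped BL15598. GstD3 was lower in Pb/2 than in A2663/v by 1.10 ± 0.13 on the log2 scale (limma's adjusted p = 1.20e-04) and lower than in BL15598 by 1.32 ± 0.13 (limma's adjusted p = 4.23e-06). Against Canton S, Pb/2 changed by -0.57 and A2663/v by 0.54, both under the 2-fold minimum (limma's adjusted p = 0.0053 and 0.0077).

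For Pb/2 against A2663/v, 1 member was called higher (GstE7, 1.10 ± 0.26, limma's adjusted p = 0.0172) and 2 lower (GstD3, and GstE10 by 1.79 ± 0.25, limma's adjusted p = 4.17e-04). The background was 0.941% called higher and 1.15% called lower. The GstE7 call was lost without Pb/2 replicate 1 or 2 or A2663/v replicate 2, each time at 0.90 to 0.98. Without the 4 arrays with the most digestive enzyme signal, which leaves 1 array per mutant, the changes were 0.95 for GstE7 and -1.16 for GstD3, and neither was called (limma's adjusted p = 0.418 and 0.0889). With the covariate on all 12 arrays both were called, at 1.13 for GstE7 and -1.11 for GstD3. GstE14, at 0.72 ± 0.16 (limma's adjusted p = 0.0149), was higher in Pb/2 by less than 2-fold.

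**Figure D5:**
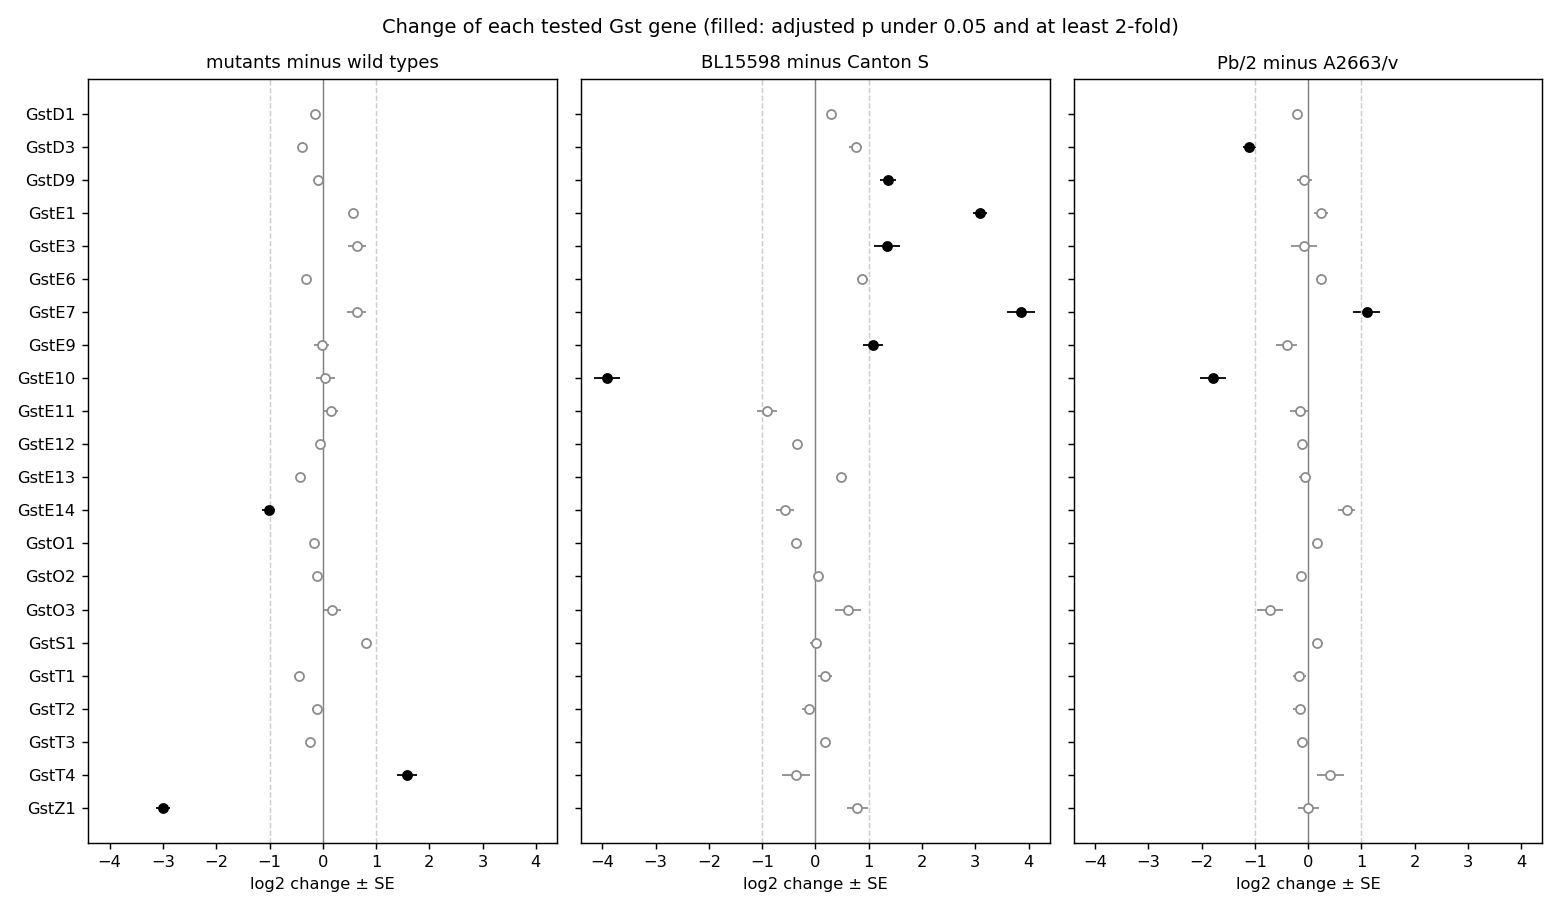
Log2 change ± SE of the 22 measurable Gst genes for mutants against wild types (left), BL15598 against Canton S (middle) and Pb/2 against A2663/v (right), with filled points for called genes and dashed lines at 2-fold. GstZ1 (-3.004), GstE14 (-1.02) and GstT4 (1.58) are called in the left panel, while GstE10 (-3.91), GstE7 (3.86) and GstE1 (3.09), of which the first pair are fitted values that include sub-floor signal, lie farthest from 0 in the middle panel.

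The count of members called per pair can be set against the background of that pair. For Pb/2 against BL15598, 2 members were called higher (GstE10 and GstT4) and 2 lower (GstD3 and GstZ1), against 4.56% and 3.12% of all genes. For Pb/2 against Canton S, 4 were higher (GstE1, GstE3, GstE7 and GstT4) and 2 lower (GstE10 and GstZ1), against 3.13% and 2.61%. For A2663/v against BL15598, 2 were higher (GstE10 and GstT4) and 4 lower (GstE1, GstE7, GstE14 and GstZ1), against 4.71% and 2.73%. For A2663/v against Canton S, 4 were higher (GstE1, GstE3, GstE7 and GstT4) and 3 lower (GstE10, GstE14 and GstZ1), against 3.1% and 2.66%. The pairs share arrays, so their counts are not independent. The median log2 change of the 22 members and of all genes was -0.38 and -0.05 for Pb/2 against BL15598, -0.18 and -0.07 for Pb/2 against Canton S, -0.20 and 0.01 for A2663/v against BL15598, and 0.00 and -0.01 for A2663/v against Canton S.

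The 12 members measured but never called included all 3 omega genes. GstO1 (CG6662) averaged 8.98 in Pb/2, 8.81 in A2663/v, 8.87 in BL15598 and 9.24 in Canton S. GstO2 (CG6673), whose product is known for an effect on the mitochondrial ATP synthase, averaged 11.18 in Pb/2, 11.33 in A2663/v, 11.38 in BL15598 and 11.34 in Canton S. GstO3 (CG6776) averaged 7.25 in Pb/2, 7.96 in A2663/v, 7.73 in BL15598 and 7.12 in Canton S. The omega genes lie side by side with se, sepia, an eye pigment enzyme of the same class, which stayed under the floor. GstO3 was highest at 8.49 in A2663/v replicate 1, an array with digestive enzyme signal, and its change of 0.18 turned to -0.27 without the 4 arrays with the most of it (limma's adjusted p = 0.403 with all arrays).

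The rest of the epsilon class showed small changes. GstE12 (CG16936) averaged 11.27 ± 0.09 in Pb/2, 11.37 ± 0.04 in A2663/v, 11.20 ± 0.06 in BL15598 and 11.55 ± 0.05 in Canton S. GstE13 (CG11784) averaged 10.19 ± 0.10 in Pb/2, 10.25 ± 0.10 in A2663/v, 10.89 ± 0.17 in BL15598 and 10.40 ± 0.14 in Canton S (SD, n = 3 each). Its change for mutants against wild types was -0.42 ± 0.07 (limma's adjusted p = 3.40e-04). Against BL15598 it was -0.70 in Pb/2 and -0.63 in A2663/v (limma's adjusted p = 1.22e-04 and 2.72e-04). Against Canton S it was -0.21 and -0.15 (limma's adjusted p = 0.132 and 0.309). GstE11 (CG5224) averaged 7.70 ± 0.03 in Pb/2, 7.86 ± 0.11 in A2663/v, 7.17 ± 0.43 in BL15598 and 8.08 ± 0.26 in Canton S. GstE11 was lower in BL15598 than in Canton S by 0.91 (limma's adjusted p = 0.0028) and so had the same sign as GstE10.

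Genes that work beside the transferases were set against the same background, 3.98% of all genes called higher and 1.85% called lower in mutants against wild types, and 20.3% higher and 26.6% lower at adjusted p alone. Of 7 Gst relatives without the prefix, 5 were tested and none was called in either direction; at adjusted p under 0.05 alone 2 were higher and 1 lower. Mgstl, the microsomal transferase, was higher by 0.78 ± 0.10 (limma's adjusted p = 4.16e-05), with means of 11.42 in Pb/2, 11.25 in A2663/v, 10.61 in BL15598 and 10.51 in Canton S. It was singled out after its values were seen. A list of 9 genes around glutathione synthesis and breakdown was broad, as its Cth, Cbs and Sardh do not themselves make or break down glutathione. Of the 9, 6 were tested (Gclc, Gclm, Ggt-1, CG4829, Cth and Cbs) and none was called. At adjusted p alone 1 was higher (CG4829) and 3 lower (Gclm, Ggt-1 and Cth), and the median was -0.33. Gclc, the catalytic subunit of the first enzyme of glutathione synthesis, averaged 8.98 in Pb/2, 9.00 in A2663/v, 9.48 in BL15598 and 8.85 in Canton S.

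Of 18 peroxide and thioredoxin enzymes, 15 were tested, none was called higher and 2 were called lower, against 3.98% and 1.85% of all genes. Prx6c, a peroxiredoxin, had log2 signals of 4.87, 6.90 and 5.02 in Pb/2, 7.48, 7.06 and 7.72 in A2663/v, 8.25, 7.77 and 7.34 in BL15598, and 7.58, 7.33 and 8.15 in Canton S. Only Pb/2 stood apart, and the change over both mutants was -1.23 ± 0.31 (limma's adjusted p = 0.0053). Srx, sulfiredoxin, which restores overoxidised peroxiredoxins, was under the floor in both mutants and in Canton S, so its call (-2.10 ± 0.21, limma's adjusted p = 4.10e-06) shrank to -0.19 with values under the floor raised to it. Srx passed the filter only through BL15598 (5.41, 5.56 and 5.19), where it was highest. Its count among the 2 called lower is therefore not independent of the filter. CncC, a product of cnc, is the transcription factor that switches on many Gst genes under oxidative or chemical stress. A list of 9 regulators held cnc, Keap1 and maf-S, and also crc, Hr96, Hnf4, ERR, ss and tgo. Its counts are therefore not of the CncC pathway alone. Of the 9 regulators, 8 were tested and none was called. At adjusted p alone 4 were higher (Hnf4, Keap1, maf-S and tgo) and 2 lower (crc and Hr96), against 20.3% and 26.6% of all genes. The cnc gene itself changed by 0.09 ± 0.07 (limma's adjusted p = 0.286). Its partner maf-S was higher by 0.83 ± 0.06 (limma's adjusted p = 2.60e-07), with means of 10.08 in Pb/2, 10.14 in A2663/v, 9.43 in BL15598 and 9.12 in Canton S, and it was called in 1 pair, A2663/v against Canton S (1.02, limma's adjusted p = 1.59e-06). The inhibitor of CncC, Keap1, averaged 8.14 in Pb/2, 7.94 in A2663/v, 7.39 in BL15598 and 8.00 in Canton S, so that only BL15598 stood apart.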

How the data were processed

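The authors deposited log2 signals of 18952 probe sets on 12 arrays, made with Partek 6.5 and GCRMA per the submitters' processing notes with settings not stated in these sources. All 12 value columns were used. Probe sets were named by the platform table (13647 with 1 gene, 402 with several, 4720 with none, 183 controls), and 13544 symbols were updated from RefSeq (Release 6 plus ISO1 MT), which served for names and gene order alone. The brightest single-gene probe set stood for each gene. Genes over log2 5 on at least 3 arrays (6163) were fitted with limma 3.58.1 in R 4.3.3, with 1 mean per genotype over all 12 arrays, a trended eBayes variance and Benjamini-Hochberg adjustment over the 6163 genes. A call needed adjusted p under 0.05 and at least a 2-fold change. Folds against a side under the floor were computed after raising values under 5 to 5, while the adjusted p printed with them are from the fit without raising. The script was tested on simulated data. Every member is named, called members are given per array, and other lists name called members or ones singled out after their values were seen. The members and lists were chosen with earlier results of these data known. Labels call the replicates biological. Replicate numbers were not used to pair arrays in the main fit. In a check for pairing, correlations of same-numbered arrays ran from -0.53 to 0.37, with 5 of 18 pairs over 0.1. These are not correlations of whole array signals, which were 0.910 to 0.979 between genotypes. The check cannot show whether same-numbered arrays were handled together. Precision is limited by 3 arrays per genotype.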

Additional observations from a re-analysis of the deposited data

Results flagged for a closer look

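For 3 Gst genes the signal was called different between the mutants, by limma's test of Pb/2 against A2663/v. The mutants also differ in the CG6499 insertion, so allele and background cannot be told apart here. The log2 difference was -1.10 for GstD3 (limma's adjusted p = 1.20e-04), -1.79 for GstE10 (limma's adjusted p = 4.17e-04) and 1.10 for GstE7 (limma's adjusted p = 0.0172). GstE10 kept its call in all 24 alternatives. GstE7 lost its call in 6 of them, and GstD3 in 1, the fit without the 4 arrays with the most digestive enzyme signal.

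GstD7, which was left out of the tests as too dim, reached a log2 signal of 5.11 on the array of A2663/v replicate 1, over the floor and above its highest wild-type value of 2.49. It read 2.44 and 2.97 on the other A2663/v arrays and 2.45 to 2.54 in Pb/2. A2663/v replicate 1 is also one of the arrays with the most digestive enzyme signal (mean log2 6.25), and the part of that signal in the GstD7 value was not tested.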

How the results depend on the processing

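Of 35 called gene results, 25 kept their call under all 23 to 24 alternatives run for each. They include the GstZ1 call in every comparison of a mutant with a wild type, and the GstE1, GstE7, GstE10, GstE3 and GstD9 calls between BL15598 and Canton S. For a pair, leaving out an array of another genotype does not alter the change, only the estimate of its spread. The 1272 recomputed gene values came from 54 gene results, of which only those 35 could lose a call. Of the 1272 values, 32 lost a call and 15 changed sign. These cover called genes and, for mutants against wild types, all 22, so calls gained elsewhere show only in the counts: Pb/2 against BL15598 had 5 calls without the 4 arrays with the most digestive enzyme signal and 4 with that signal as a covariate, each sharing 3 with the 4 made on all arrays. Of 174 recomputed counts, 166 stayed within 1.5 times. With no 2-fold minimum the counts of members were 13 for mutants against wild types, 16 and 12 for Pb/2 against BL15598 and Canton S, 14 and 14 for A2663/v against the same strains, and 15 for BL15598 against Canton S. Without those 4 arrays, which leaves 1 array per mutant with its spread taken from the wild types, A2663/v against Canton S had 4 calls (7 with all arrays) and Pb/2 against A2663/v had 1 (3 with all arrays). With the covariate on all 12 arrays these counts were 5 and 3. Leaving out 1 array at a time gave 2 to 3 calls for mutants against wild types, 3 to 4 and 6 to 7 for Pb/2 against BL15598 and Canton S, 5 to 6 and 5 to 8 for A2663/v, 6 to 7 for BL15598 against Canton S, and 2 to 3 for Pb/2 against A2663/v. The sign of 4 uncalled changes of mutants against wild types turned. GstE10 (0.05) became -0.17 with values under the floor raised to it, -0.11 with digestive enzyme signal as a covariate, -0.23 without the 4 arrays, and -0.10 to 0.20 with 1 array left out. GstE9 (-0.02) ranged from -0.13 to 0.070 with 1 array left out. GstO2 (-0.10) was 0.055 by its dimmer probe set, an alternative chosen after seeing the data. GstO3 (0.18) became -0.10 with the covariate and -0.27 without the 4 arrays. The causes were not tested. GstE10 in A2663/v against Canton S (-1.01) also lost its call with median centring, without A2663/v replicate 1, and without Canton S replicate 1 or 2. GstE7 in Pb/2 against A2663/v lost its call with no filter and with only the arrays compared, and GstE9 between the strains with the mean of its probe sets (0.58). With the replicate block the counts were 3, 4, 6, 6, 7, 6 and 3 for the comparisons in the order above, as without it. In the check for pairing, the best correlate among other genotypes had the same number for 4 of 12 arrays.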

Other observations

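Signal of GstD5, too dim for the tests, was 3.32, 2.95 and 2.42 in Pb/2, 3.24, 2.50 and 3.41 in A2663/v, 2.44 to 2.52 in BL15598 and 2.37 to 2.42 in Canton S. The 4 highest values came from the 4 mutant arrays with the most digestive enzyme signal. All of them were under the floor.

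CG4829, an uncharacterised gene on the list for glutathione breakdown, had means of 8.77 in Pb/2, 9.44 in A2663/v, 7.80 in BL15598 and 8.67 in Canton S. It was higher in A2663/v than in BL15598 by 1.64 on the log2 scale, and by 0.87 ± 0.10 for mutants against wild types (limma's adjusted p = 9.30e-06). It was singled out after its values were seen.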
